A study of Arabidopsis thaliana with 15 samples.

Results

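TIR-NBS-LRR genes encode intracellular immune receptors of plants. They were taken here as every row whose annotation text contains TIR-NBS-LRR, in upper or lower case, and 85 of the 22526 rows qualified. Receptors annotated in other words, such as TAO1 and AT4G19500, are left out. The members were chosen by annotation text alone, but the family itself was selected on the read counts and FPKM of these same 5 columns, so its counts below are a description and not a test. Expression was measured by strand-specific sequencing of polyadenylated RNA from whole wild-type Col-0 seedlings aged 14 days, which had spent their last day in liquid medium. The 5 conditions were an untreated control, 20 µM abscisic acid (ABA, the hormone made when water is short) for 1 h or 3 h, and dehydration on filter paper for 1 h or 3 h. ABA stock was dissolved in methanol per the labels, and a methanol-only group was not analysed here. The control was harvested before the treatments began, so time and handling cannot be told apart from treatment in any comparison with it. Each condition had 3 biological replicates sequenced together in 1 pool, and the tables hold 1 combined column per condition. The spread between replicates is therefore unknown for every difference below, and conditions were not tested against each other. Whole seedlings were extracted, so fewer cells of a type and less RNA per cell cannot be told apart.

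A TIR-NBS-LRR protein joins a Toll/interleukin-1 receptor (TIR) domain, a nucleotide-binding domain and a row of leucine-rich repeats. In a resting cell the receptor is held inactive. When a pathogen effector is sensed, directly or through a guarded host protein, receptors assemble, the TIR domain acts on NAD+, and its small-molecule products switch on EDS1 complexes and helper receptors, which can lead to salicylate signalling and local cell death. Too much of such a receptor can set off immunity without a pathogen, and SNC1, RPS4 and LAZ5 are textbook cases. The genes often lie in tandem arrays, and some, such as RPS4 and RRS1, work as head-to-head pairs.

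Totals ran from 163762670 reads for ABA 1 h to 204315702 for ABA 3 h. Counts were turned into CPM, which scales each column to a common library size, and a gene with a mean of at least 1 CPM over the 5 columns is called measured, which 18876 genes were. Of the members, 67 were measured and 18 were not. The 18 had between 6 and 241 reads in any column. Of the 67, the number under 1 CPM was 2 in the control, 2 and 1 with ABA (1 h and 3 h) and 0 in either dehydration column, so few members passed through 1 high column. A log2 ratio below is one of CPM, and the range in brackets is its exact 95% counting interval, which covers counting error only. Levels are the deposited FPKM, which account for gene length. The labelled tissue was compared with its markers. The 3 leaf markers in the table summed to 9737 FPKM in the control, 6265 and 4489 after ABA 1 h and 3 h, and 5622 and 5461 after dehydration 1 h and 3 h. The 4 root markers summed to 21.9, 20.8, 17.3, 13.2 and 12.3 FPKM in the same order, and the 3 guard cell markers to 28.3, 19.6, 20.7, 32.6 and 28.9. The 3 seed storage markers summed to 0.0786, 0.362, 0.123, 0.0265 and 1.505 FPKM, with CRU3 listed at 0 after dehydration 1 h. Leaf and root marker sums were thus lower in both dehydration columns than in the control, while the guard cell sum was slightly higher. Among single root markers, COBL9, EXPA7, SHR and RHD6 had log2 ratios of −1.38, −1.42, −0.17 and 0.59 after dehydration 1 h. After 3 h they had −1.33, −0.87, −0.94 and 0.79, so RHD6 went the other way. Single guard cell markers differed, with KAT1, FAMA and MYB60 at log2 ratios of 0.26, 0.55 and −0.19 after dehydration 1 h and −0.05, 0.11 and −0.05 after 3 h. Seed markers were near 0 except for the last column, where 1 of 3 reached 1 CPM. The part of these markers in the results was not tested.

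The P-loop is the stretch of the nucleotide-binding domain that holds the phosphates of ATP, and some members share its codons letter for letter. Its codons were found in 81 of the 85 members in the RefSeq annotation of TAIR10.1, and were not found in AT4G23510, AT5G45000, AT5G45220 and AT5G46500. The sequences are coding strand, 5′ to 3′, and the capitals mark the last pair of codons, for the lysine that contacts phosphate and the threonine or serine after it.
VICTR: ggttcctcggggattggtAAGACT
VICTL: ggttcctcggggattggtAAGACT
AT5G46490: ggttcctcggggattggtAAGACT
RPS6: ggtccctcgggaattggcAAAACG
RPP4: ggacagtcagggattggtAAGAGT
SNC1: ggacaatcagggattggtAAGAGT
RPP5: ggacaatcagggattggtAAGAGT
In TAIR10.1 these lie at chr5:18868559-18868582 (plus strand) for VICTR, chr5:18861173-18861196 (plus) for VICTL, chr5:18851565-18851588 (plus) for AT5G46490 and chr5:18843437-18843460 (plus) for RPS6. Those of RPP4, SNC1 and RPP5 lie at chr4:9491880-9491903, chr4:9504722-9504745 and chr4:9543546-9543569, all on the minus strand. The VICTR stretch was letter for letter that of VICTL, AT5G46490 and, outside this neighbourhood, AT5G46260 and AT5G46270, 5 members in all. RPP4 shared its stretch with AT4G16920, AT4G16940 and AT4G16960, and SNC1 shared its own with RPP5. Over whole exons, 57 members held no 100-base stretch found elsewhere in the genome. In 13 members at least 10% of such stretches were repeated, led by VICTR with 59.4%, AT4G16960 with 54.0% and VICTL with 46.4%, and the split of reads between such copies is uncertain. SNC1 and AT5G46270 share their P-loop codons with other members but had 3.05% and 2.30%. A shared P-loop therefore does not show how well reads can be assigned. An annotated gene overlapped 7 members on the same strand, 6 of them among those 13, and 18 members on the other strand, and the strand setting of the counting was not given in the sources used here.

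These receptors were lowly to moderately expressed. Mean FPKM over the 5 columns ran from 0.0306 to 46.1 with a median of 3.45, and 25 members were below 1 FPKM and 13 at 10 or above. Measured members had a median of 5.20 FPKM, against 14.9 for all measured genes. The highest were RPP5 at 46.1, SNC1 at 41.7 and RPP4 at 39.7, which are neighbours on chromosome 4, then RPP1 at 22.9 and AT3G44670 at 19.1. RPP1, RPP4 and RPP5 are named for resistance to the downy mildew oomycete, and SNC1 for a mutant in which immunity is always on. The lowest measured members were AT5G48770 at 0.311, AT5G41550 at 0.461 and AT3G25510 at 0.517. Summed over the 85 members, FPKM stood at 444 in the control, 440 and 399 with ABA (1 h and 3 h), and 798 and 556 with dehydration (1 h and 3 h). RPP5, SNC1 and RPP4 together made up 22.3% of that sum in the control and 25.7% after dehydration 1 h. The other 82 members summed to 345 FPKM in the control and 592 after dehydration 1 h, so the higher sum did not rest on those 3 genes.

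The comparison of dehydration 1 h with the control is described first. Of the 67 measured members, 24 (35.8%) were at least 2-fold higher, where 7.49% of all measured genes were. Only AT4G19530 (1 of 67) was at least 2-fold lower, against 5.85% of all genes. The median log2 ratio was 0.80, against −0.03 over all measured genes, and 61 members lay above 0 and 6 below. Counting error was small beside these ratios. In 22 of the 24 the whole counting interval lay above a 2-fold ratio, and in 1 of 67 members it held 0. The threshold cut through a dense range, with 6 members between 0.9 and 1.0 on the log2 scale and 1 between 1.0 and 1.1. Total-count scaling moved the median of all measured genes to 0.11 and that of the members to 0.94.

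**Figure D1:**
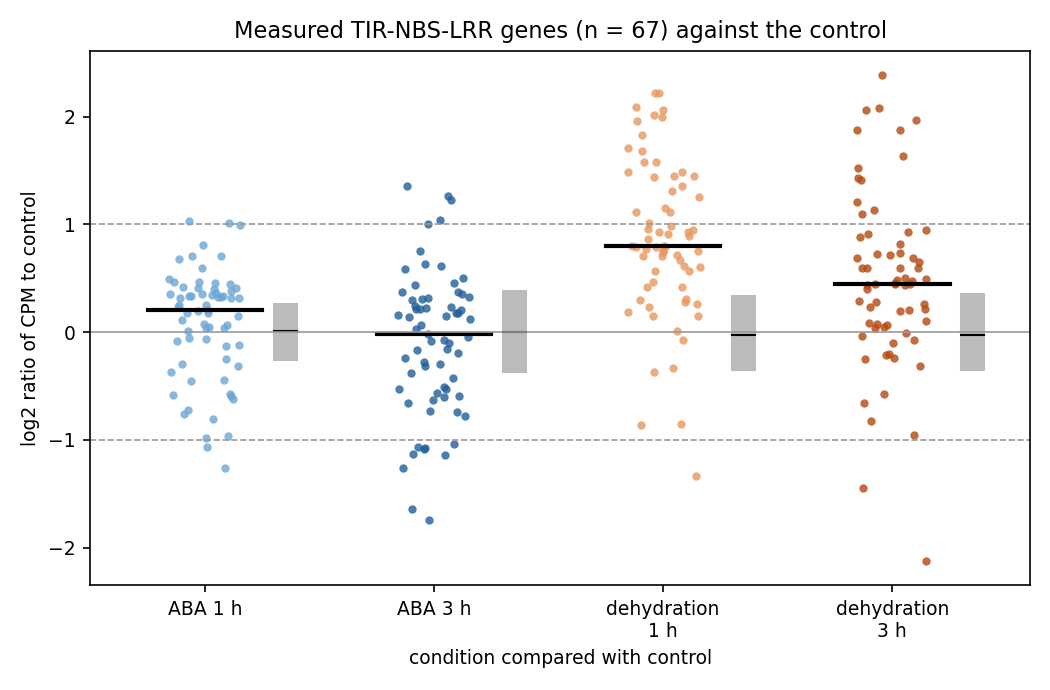
Log2 ratio of CPM to the control (y axis) for each of the 67 measured TIR-NBS-LRR genes in 4 conditions (x axis). Black bars are the members' medians (0.21, −0.02, 0.80 and 0.45 from left to right), grey boxes span the quartiles of all measured genes with their median, and dashed lines mark 2-fold; most points of dehydration 1 h lie above the grey box.

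VICTR and VICTL stood among the 6 highest members. VICTR (AT5G46520) is required in Col-0 for the response to the compound DFPM, which blocks ABA-induced closing of stomata, and VICTL (AT5G46510) is its close homologue. VICTR stood at 3.20 FPKM in the control, 5.16 and 5.402 with ABA (1 h and 3 h), and 12.8 and 12.3 with dehydration (1 h and 3 h). Both dehydration columns were above both ABA columns, and the control was lowest. Its ratio to the control after dehydration 1 h was 2.0005 (1.93 to 2.07), at the 4-fold mark. VICTL stood at 4.75, 6.004, 5.53, 19.2 and 10.7 FPKM in the same order, and dehydration at 1 h gave a ratio of 2.01 (1.96 to 2.06). It had the same order of treatments but was nearly as low after ABA as in the control. Because the exons of these genes are alike, their separate values are uncertain.

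The other 4 of the 6 highest carry no gene name in the tables. AT4G14370 stood at 1.22 FPKM in the control, 2.39 and 2.92 with ABA (1 h and 3 h), and 5.70 and 5.01 with dehydration (1 h and 3 h), so every treated column was above the control. Its log2 ratio after dehydration 1 h was 2.22 (2.099 to 2.35). AT5G46500, annotated only by its best protein match and short, with 1254 coding bases, stood at 1.03, 1.42, 0.488, 4.81 and 4.28 FPKM, so the dehydration columns were high and ABA 3 h was lowest. Its ratio after dehydration 1 h was 2.22 (1.99 to 2.45). AT1G63860 stood at 4.405, 5.502, 3.86, 18.8 and 11.5 FPKM, with a ratio of 2.09 (2.03 to 2.16), and AT1G56540 at 0.902, 1.22, 1.27, 3.77 and 3.23 FPKM, with 2.06 (1.92 to 2.21). In both, the dehydration columns were the highest pair. The 18 further members at least 2-fold higher had log2 ratios from 1.01 for LAZ5 to 1.96 for AT3G04220.

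Members with a published role were on both sides of the 2-fold limit. RPP4 stood at 25.4 FPKM in the control, 31.0 and 19.3 after ABA 1 h and 3 h, and 75.6 and 47.2 after dehydration 1 h and 3 h. It was the most abundant member in the dehydration 1 h column, and its log2 ratio there was 1.581 (1.55 to 1.61). WRR4, which gives resistance to the white rust oomycete, stood at 6.70, 5.28, 4.18, 18.2 and 10.3 FPKM, a ratio of 1.44 (1.39 to 1.497) after dehydration 1 h, with both ABA columns below the control. RPS6, which recognises a Pseudomonas syringae effector, stood at 10.3, 17.9, 15.6, 26.5 and 16.7 FPKM, a ratio of 1.36 (1.32 to 1.40), and all treated columns were above the control. LAZ5, whose overexpression kills cells, stood at 7.85, 7.10, 5.37, 15.8 and 8.14 FPKM, a ratio of 1.01 (0.96 to 1.07). Dehydration 1 h was its highest column and ABA 3 h its lowest, at −0.53 (−0.60 to −0.47). Below the limit, SNC1 had a ratio of 0.93 (0.91 to 0.95), RPP1 0.87 (0.83 to 0.90) and RPP5 0.71 (0.69 to 0.73), and their counting intervals did not reach 2-fold. AT5G41750 had a ratio of 1.49, AT5G18370 0.75, AT4G12010 0.30 and AT4G19510 0.24.

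**Figure D2:**
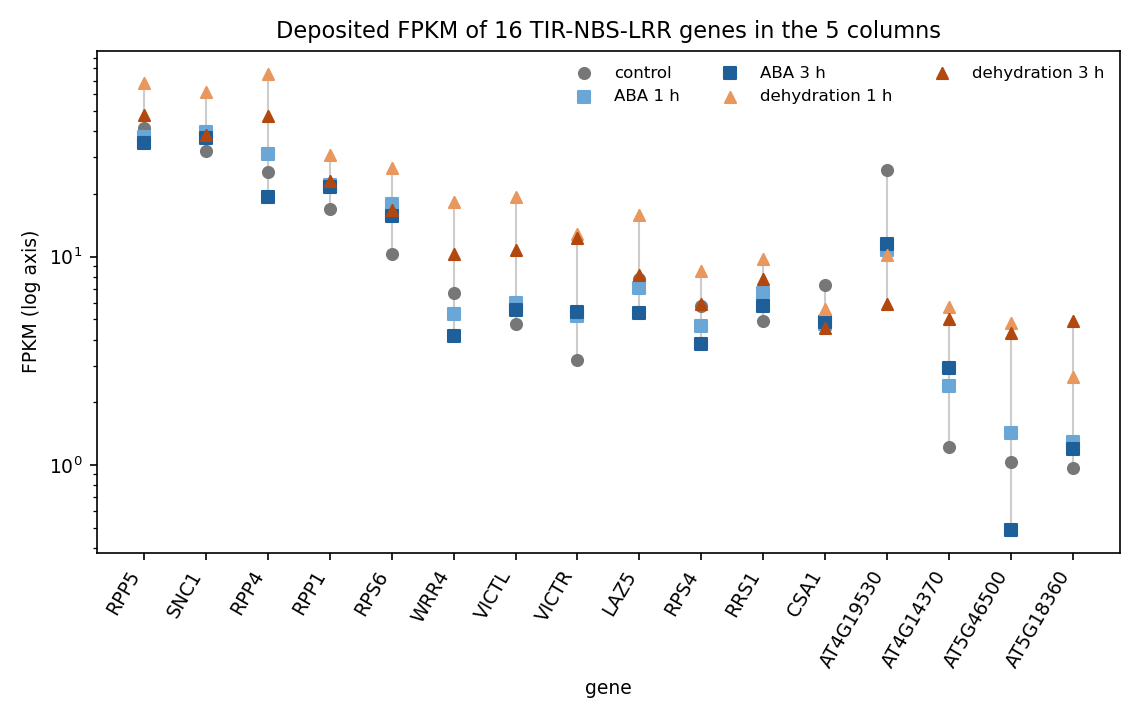
Deposited FPKM (y axis, log scale) of 16 TIR-NBS-LRR genes (x axis) in the control (circle), ABA (squares) and dehydration (triangles) columns, 1 combined value per condition. The dehydration 1 h triangle is the top point for most genes, while AT4G19530 (26.0 FPKM in the control) and CSA1 are highest in the control and AT5G18360 is highest after dehydration 3 h.

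The 6 lowest members after dehydration 1 h were led by AT4G19530, recorded in RefSeq as able to cause cell death when expressed in tobacco leaves. It stood at 26.0 FPKM in the control, 10.7 and 11.5 with ABA (1 h and 3 h), and 10.2 and 5.92 with dehydration (1 h and 3 h). All 4 treated columns were less than 50% of the control, and the log2 ratios were −1.26 (−1.30 to −1.22), −1.14 (−1.18 to −1.11), −1.34 (−1.38 to −1.30) and −2.12 (−2.18 to −2.07). Its next neighbour among the members, AT4G19520, lay on the other side, at 4.32, 5.64, 10.11, 12.8 and 8.19 FPKM, with 1.57 (1.52 to 1.63) after dehydration 1 h. AT4G23510 had a ratio of −0.86, AT5G40100 −0.85, CSA1 −0.37, AT5G46270 −0.33 and AT2G14080 −0.08. CSA1, named for a mutant that grows as if shaded, stood at 7.28, 4.77, 4.86, 5.61 and 4.56 FPKM, with every treated column below the control.

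After dehydration for 3 h, 13 of 67 members (19.4%) were at least 2-fold higher than the control, against 10.4% of all measured genes. The 2 members at least 2-fold lower were AT4G19530 and AT5G40100, against 6.57% of all genes. The median was 0.45, against −0.03 over all genes. The highest was AT5G18360 at 2.39 (2.23 to 2.54). It stood at 0.969 FPKM in the control, 1.29 and 1.19 after ABA, and 2.66 and 4.91 after dehydration 1 h and 3 h, so the later dehydration column was the highest. AT5G46500 had 2.08, AT4G14370 2.06, VICTR 1.97 (1.90 to 2.04), AT1G56540 1.88 and AT5G17680 1.87. At the other end were AT4G19530 at −2.12, AT5G40100 at −1.45 (−1.65 to −1.26), AT4G23510 at −0.96, AT5G46270 at −0.83, CSA1 at −0.66 and AT1G17600 at −0.58. AT5G40100 stood at 1.57, 0.788, 1.18, 0.871 and 0.567 FPKM, lowest after dehydration 3 h.

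Between the dehydration times the receptors were mostly lower at 3 h. The ratio of 3 h to 1 h was below 0 in 63 of 67 members, with a median of −0.42 against 0.00 over all measured genes. No member was 2-fold apart in either direction (0 of 67), where 5.41% of all genes lay past 2-fold upward and 1.37% downward. Among members lower at 3 h, the largest differences were those of AT5G22690 at −0.97, LAZ5 at −0.95 and AT4G36150 at −0.89. The 4 members above 0 were AT5G18360 at 0.94, AT5G17680 at 0.43, AT5G18370 at 0.34 and AT1G56520 at 0.19, of which AT5G18360 and AT5G18370 are neighbours. VICTR differed little, at −0.03.

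After ABA for 1 h the family was near the control. The median log2 ratio was 0.21, against 0.01 over all measured genes, and 45 members lay above 0. Only RMG1 and AT1G63730 (2 of 67) were at least 2-fold higher, where 4.46% of all genes were, and only AT4G19530 and AT5G11250 (2 of 67) were at least 2-fold lower, where 5.24% were. RMG1 (AT4G11170), a receptor induced by bacterial flagellin and silenced by DNA methylation at its promoter, stood at 0.547 FPKM in the control, 1.102 and 0.849 with ABA (1 h and 3 h), and 0.865 and 0.810 with dehydration (1 h and 3 h). It was highest after ABA 1 h, with a ratio of 1.03 (0.82 to 1.24) whose interval reached below 2-fold. AT1G63730 had 1.02 (0.88 to 1.16), AT4G14370 0.99, RPS6 0.81 (0.77 to 0.85), VICTR 0.71 (0.63 to 0.79) and AT1G72840 0.70. On the lower side AT5G11250 had −1.07 (−1.17 to −0.97), AT5G40100 −0.98, AT5G41740 −0.97, AT4G23510 −0.81 and AT5G58120 −0.76.

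After ABA for 3 h the members spread to both sides of the control, with 33 above 0 and 34 below and a median of −0.02, against 0.00 over all genes. The 5 at least 2-fold higher (9.02% of all genes) were AT5G41550 at 1.36 (1.03 to 1.69), AT4G14370 at 1.27 (1.13 to 1.40), AT4G19520 at 1.22 (1.17 to 1.28), AT5G48770 at 1.04 (0.71 to 1.38) and AT1G63730 at 1.00 (0.86 to 1.14). VICTR followed at 0.75. AT5G41550 and AT5G48770 are among the 3 measured members with the lowest levels, at 304 and 249 reads after ABA 3 h. The 9 at least 2-fold lower (7.88% of all genes) were led by AT4G23510 at −1.74 (−1.91 to −1.59), which stood at 4.87, 2.69, 1.42, 2.69 and 2.44 FPKM and was lowest after ABA 3 h. AT5G46490 had −1.64 (−1.74 to −1.54), and its FPKM per read differed between columns by up to 0.24 on the log2 scale. AT5G38340 followed at −1.26, AT4G19530 at −1.14, AT3G25510 at −1.13 and AT5G46450 at −1.09. Between the ABA times, 50 of 67 members were lower at 3 h, with a median of −0.15 against 0.01. None was at least 2-fold higher (4.93% of all genes), and 2 were at least 2-fold lower (2.38%), AT5G46500 at −1.57 and AT3G25510 at −1.36.

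Dehydration and ABA were also compared directly at the same time, without the control. Dehydration was on filter paper and ABA came from a methanol stock, so handling and solvent cannot be told apart from treatment here either. At 1 h, 62 of 67 members were higher after dehydration than after ABA. The median log2 ratio was 0.73, against −0.02 over all measured genes, and 19 members were at least 2-fold higher (5.29% of all genes) and 0 at least 2-fold lower (3.61%). AT5G41740 stood at 7.43 FPKM in the control, 3.74 and 3.55 after ABA 1 h and 3 h, and 14.3 and 12.9 after dehydration 1 h and 3 h. The control lay between the treatments, ABA was low and dehydration was high, and the ratio of dehydration to ABA at 1 h was 1.91 (1.85 to 1.98). AT4G36150 followed at 1.86 and AT1G63750 at 1.78. In AT5G11250 the control also lay between the treatments, at 4.70, 2.20, 2.82, 6.49 and 5.48 FPKM. The lowest ratios at 1 h were RMG1 at −0.37 (−0.54 to −0.19), AT1G63730 at −0.22 and AT5G46260 at −0.08. At 3 h, 52 of 67 members were higher after dehydration, with a median of 0.50 against −0.02. There, 17 were at least 2-fold higher (9.15% of all genes) and only AT5G40100, at −1.02, at least 2-fold lower (1 of 67, against 6.83%). AT5G46500 led at 3.15 (2.85 to 3.47), with 99 reads after ABA 3 h and 810 after dehydration 3 h. AT5G18360 had 2.08 and AT5G41740 1.89, and at the other end AT4G19530 had −0.98 and AT4G16900 −0.41.

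Taking each measured member's 5 columns together, dehydration 1 h was the highest column for 54 of 67 (80.6%), while it was the highest for 18.4% of all measured genes. Of the remaining 13, AT4G19530, AT4G23510, CSA1, AT5G40100 and AT5G46270 were highest in the control, RMG1, AT1G63730 and AT5G46260 after ABA 1 h, AT2G14080 after ABA 3 h, and AT1G56520, AT5G17680, AT5G18360 and AT5G18370 after dehydration 3 h. The lowest column was the control for 29 members and ABA 3 h for 28. Of the 54, the low end was the control in 24 and ABA 3 h in 25. The lowest column was not counted over all measured genes, so these counts do not show a trait of the family. By expression level, the shares of members at least 2-fold higher after dehydration 1 h were 38.5% of 13 members at 1 to 5 CPM, 32.0% of 25 at 5 to 20 CPM, 38.5% of 26 at 20 to 100 CPM and 33.3% of 3 above that. Of all measured genes 13.5%, 7.14%, 5.63% and 5.36% were.

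**Figure D3:**
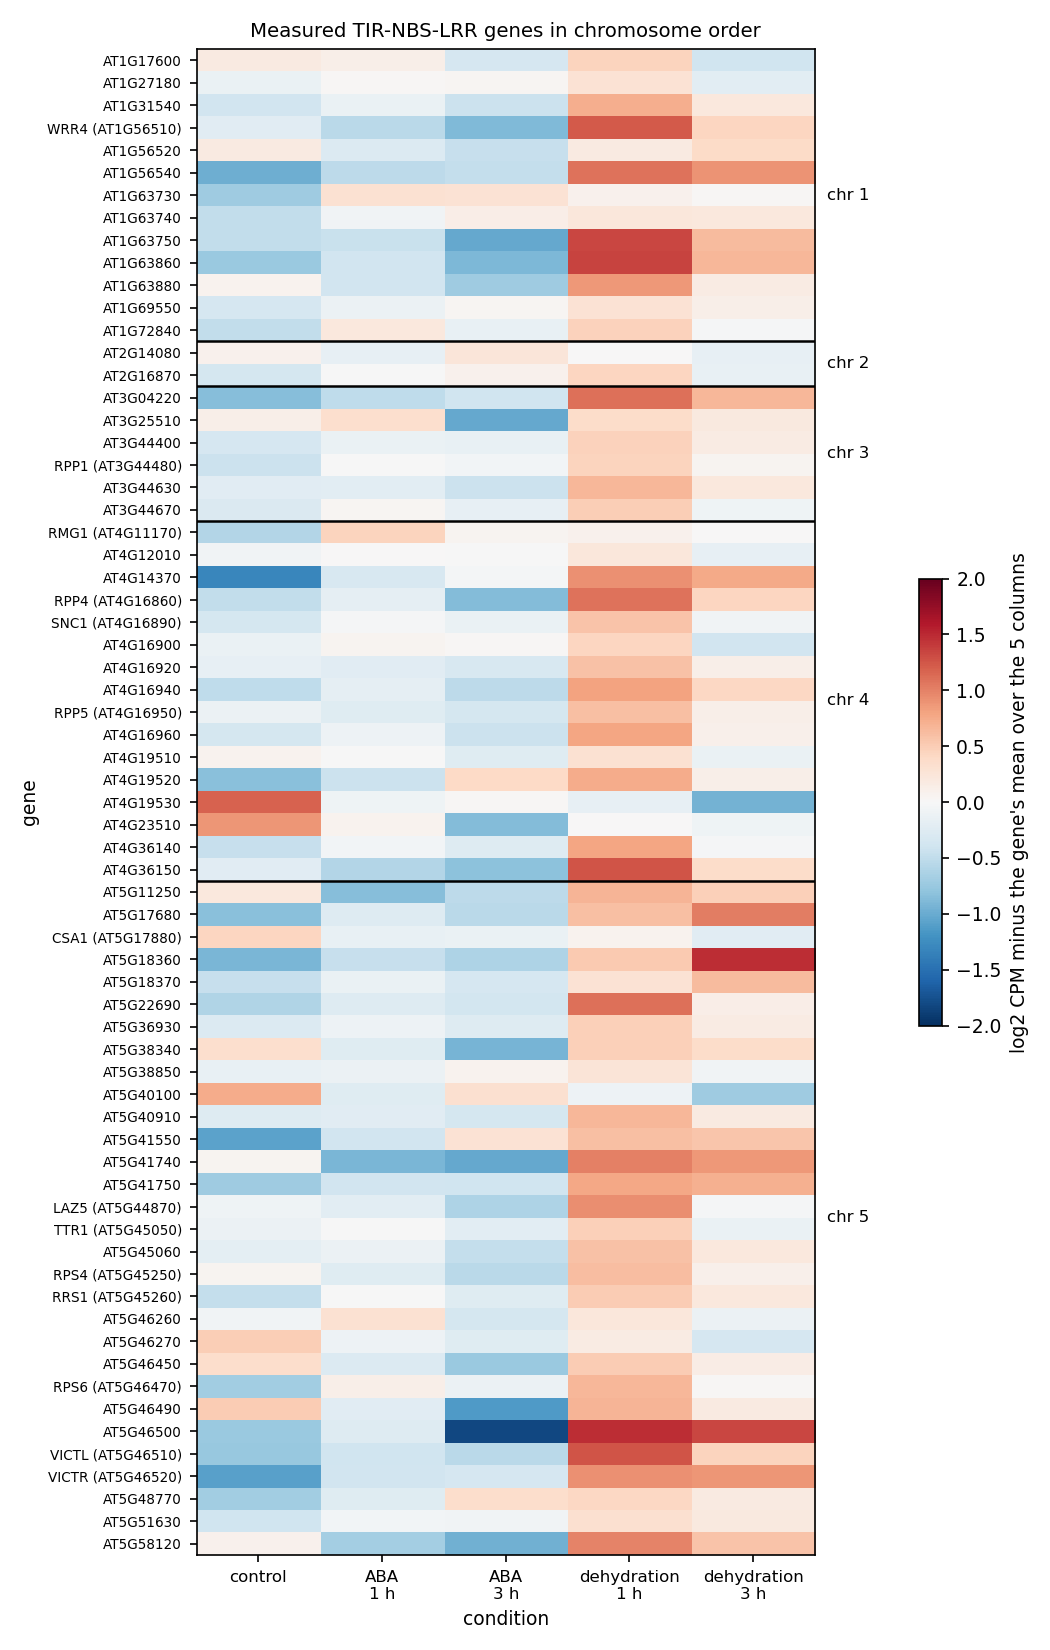
Log2 CPM of the 67 measured TIR-NBS-LRR genes (rows, in chromosome order) minus each gene's mean over the 5 columns (red above, blue below). The dehydration 1 h column is red in most rows, 54 of 67 have their maximum there, and AT4G19530 has its maximum in the control.

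The genes were spread unevenly over the genome, with 16 on chromosome 1, 4 on chromosome 2, 8 on chromosome 3, 18 on chromosome 4 and 39 on chromosome 5. With at most 8 other protein-coding genes allowed between neighbours, 57 members fell into 19 neighbourhoods and 28 stood alone. After dehydration 1 h the median log2 ratio was 0.89 over the 43 measured members with a neighbour, 17 of them at least 2-fold higher, and 0.69 over the 24 without one, 7 of them at least 2-fold higher. Of all measured genes 7.49% were, and the difference between the 43 and the 24 was not tested. Members within a neighbourhood share sequence and are not independent of each other.

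The RPP4 to RPP5 neighbourhood on chromosome 4 (RPP4 at chr4:9488466-9495837 to AT4G16960 at chr4:9547402-9551028, TAIR10.1, all on the minus strand) held 7 members, all measured. After dehydration 1 h its log2 ratios ran from 0.57 for AT4G16900 to 1.581 for RPP4, with a median of 0.93 and 3 at least 2-fold higher (7.49% of all measured genes). After dehydration 3 h they ran from −0.25 for AT4G16900 to 0.93 for RPP4, with a median of 0.28. After ABA all 7 stayed within −0.38 and 0.33 of the control on the log2 scale. The RPS6 to VICTR neighbourhood on chromosome 5 (AT5G46450 at chr5:18835605-18840058 to VICTR at chr5:18867616-18872494, all on the plus strand) held 6, all measured, and was wider. After dehydration 1 h it ran from 0.15 for AT5G46450 to 2.22 for AT5G46500, with 4 at least 2-fold higher (7.49% of all measured genes). After ABA 3 h it ran from −1.64 for AT5G46490 to 0.75 for VICTR, with 3 at least 2-fold lower (7.88% of all measured genes). AT5G46450 and AT5G46490, at 12.9 and 9.79 FPKM in the control, were at 6.02 and 3.12 after ABA 3 h, while VICTR went from 3.20 to 5.40. The third such group, AT5G45200 to AT5G45260 with RPS4 and RRS1, held 6 members, of which those 2 were measured. All 15 measured members of these 3 neighbourhoods were highest after dehydration 1 h, where 18.4% of all measured genes were.

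**Figure D4:**
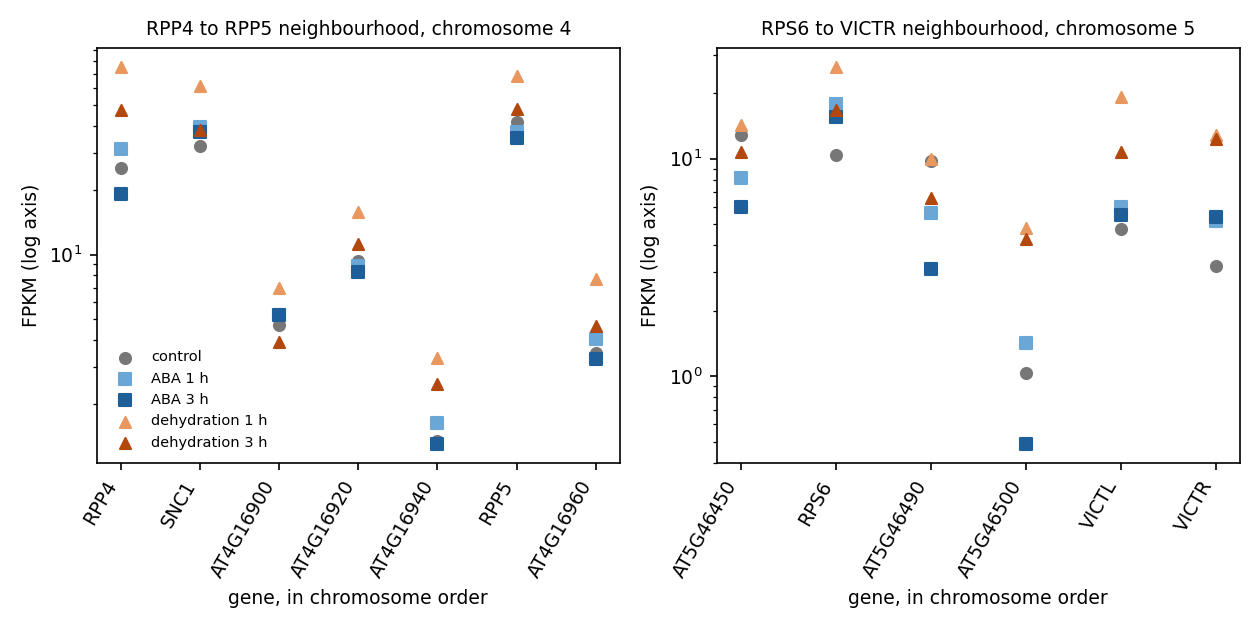
Deposited FPKM (y axis, log scale) of the members of 2 neighbourhoods in chromosome order (x axis), with 1 combined value per condition. The dehydration 1 h triangle is the highest point for all 13 genes; on the right, AT5G46450, AT5G46490 and AT5G46500 have their lowest point after ABA 3 h, and RPS6, VICTL and VICTR in the control.

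RPS4 and RRS1 act as a pair in recognising bacterial effectors, with RRS1 carrying a WRKY domain as a decoy, and RRS1 is also recorded as SLH1, for sensitive to low humidity. Their starts face away from each other 27 bases apart. RPS4 stood at 5.77 FPKM in the control, 4.63 and 3.80 after ABA 1 h and 3 h, and 8.51 and 5.91 after dehydration 1 h and 3 h. RRS1 stood at 4.93, 6.72, 5.79, 9.71 and 7.82 FPKM. Both were highest after dehydration 1 h, at log2 ratios of 0.57 (0.50 to 0.63) and 0.98 (0.93 to 1.04), but after ABA RPS4 lay below the control, at −0.30 (−0.37 to −0.22) and −0.60 (−0.67 to −0.52), and RRS1 above it, at 0.46 (0.40 to 0.53) and 0.23 (0.17 to 0.30). WRKY codons were found in 2 members, RRS1 and TTR1 (AT5G45050). TTR1 and its head-to-head partner AT5G45060, 64 bases away, had 0.60 and 0.77 after dehydration 1 h, −0.01 and 0.40 after dehydration 3 h, and −0.09 and −0.29 after ABA 3 h. CSA1 and CHS3, 3544 bases apart, differed after dehydration 1 h, at −0.37 and 0.43, where CHS3 is a partner gene outside the family by its annotation and known for a chilling-sensitive mutant. AT1G17600 overlaps its partner CHS1 on the other strand, was at most 0.778 FPKM, and had 0.28 after dehydration 1 h.

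Promoters were read from 250 bases before to 50 after each gene's start in RefSeq TAIR10.1 and searched on both strands. The W-box core TTGAC, the element that WRKY factors bind, was in 58 of 85 members (68.2%) and in 51.1% of the 22424 promoters of all matched rows. The ABA-response core ACGTG was in 18.8% against 28.1%, the G-box CACGTG, which holds ACGTG within it, in 2.35% against 8.61%, and the dehydration-response core CCGAC in 11.8% against 15.7%. The windows below are those of the 6 members highest after dehydration 3 h, gene strand 5′ to 3′, and the capitals mark the core, which is GTCAA where it lies on the other strand.
AT5G18360: ttctcaagtgTTGACccaaatccga
AT5G46500: aaaataaatcGTCAAaatctagttt
AT4G14370: tttctcaaaaGTCAAaagtcaaaat
VICTR: tgacgattgaGTCAAcaaagaggaa
AT1G56540: cgaagtcacgTTGACtttgaatttt
AT5G17680: gttggaacctTTGACttctgggtat
They lie at chr5:6083147-6083171 (minus), chr5:18855877-18855901 (plus), chr4:8283490-8283514 (minus), chr5:18867632-18867656 (plus), chr1:21181567-21181591 (plus) and chr5:5822831-5822855 (plus). Of the 44 measured members with the core, 20 were at least 2-fold higher after dehydration 1 h and 13 after 3 h, with medians of 0.95 and 0.59. Of the 23 without it, 4 and 0 were, with medians of 0.71 and 0.28. The same offset was present after ABA, so it was not particular to dehydration. There the medians with and without the core were 0.33 and 0.03 at 1 h, and 0.16 and −0.24 at 3 h. Among all measured genes the shares at least 2-fold higher were 8.62% of 9633 genes with the core and 6.30% of 9189 without it after dehydration 1 h. After dehydration 3 h they were 11.2% of 9635 and 9.53% of 9189. RPP4 and AT4G19530 had no TTGAC in this window. RPP4, AT4G16940 and AT4G16960, all without it and at least 2-fold higher after dehydration 1 h, are of the same neighbourhood. Every member of the RPS6 to VICTR neighbourhood had the core, so members are not independent of each other in this split. These are matches of letters, and the split was chosen after the values were seen.

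Other receptor families were compared by annotation text. The receptors with a coiled coil in place of the TIR domain were approximated by annotation wording, which may also take in helper receptors described below. This coiled-coil class held 39 measured CC-NBS-LRR or NB-ARC genes. Of these, 7 (17.9%) were at least 2-fold higher after dehydration 1 h, against 7.49% of all measured genes. After 3 h, 7 were (17.9%, against 10.4% of all measured genes). The medians were 0.59 at 1 h and 0.28 at 3 h. Of 9 measured TIR-NBS genes, which lack the repeats in their annotation, 1 was at least 2-fold higher and 1 lower after dehydration 1 h, with a median of 0.07. Of all measured genes, 7.49% were higher and 5.85% lower at that time. Of 8 measured genes annotated with a Toll-Interleukin-Resistance domain, 0 were higher and 1 was lower, with a median of −0.35. After ABA 3 h the medians were −0.10 for the coiled-coil class, −0.75 for TIR-NBS and −1.08 for the Toll-Interleukin-Resistance class, with 1 of 39, 3 of 9 and 4 of 8 at least 2-fold lower, where 7.88% of all measured genes were. The differences between families were not tested.

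**Figure D5:**
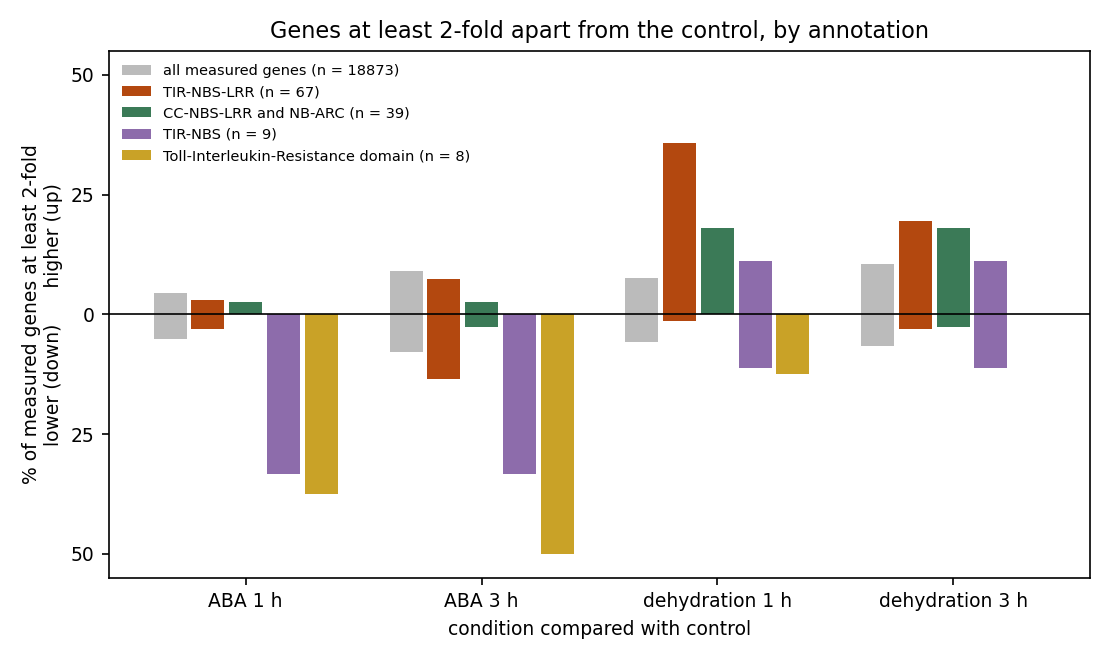
Share of measured genes at least 2-fold higher (bars up) or lower (bars down) than the control, in percent (y axis), for 4 conditions (x axis) and 5 annotation groups, with n in the key as for dehydration 1 h. After dehydration 1 h the TIR-NBS-LRR bar reaches 35.8%, against 17.9% for the coiled-coil class and 7.49% for all measured genes.

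Genes that act with the receptors were described from lists. EDS1, PAD4 and SAG101 form the complexes that TIR signals switch on, and none of the 4 genes of that list was 2-fold apart from the control after dehydration. Of all measured genes, 7.49% and 10.4% were at least 2-fold higher after dehydration 1 h and 3 h, and 5.85% and 6.57% lower. After ABA for 3 h, 1 of the 4 listed genes, AT3G48080, was at least 2-fold lower, at −1.48, where 7.88% of all measured genes were. EDS1 stood at 11.2 FPKM in the control, 13.5 and 9.63 after ABA, and 22.4 and 18.4 after dehydration 1 h and 3 h, just under 2-fold at 1 h. PAD4 had log2 ratios of 0.42 and 0.13 after dehydration 1 h and 3 h, and SAG101 0.77 and 0.15. Of the 5 helper receptors in the table, 0 were 2-fold apart from the control in any condition. Over the conditions, 4.46% to 10.4% of all measured genes were at least 2-fold higher and 5.24% to 7.88% lower. A count of 0 among so few genes lies near these shares. After dehydration 1 h, ADR1, ADR1-L1 and ADR1-L2 had −0.01, 0.37 and 0.04, and AT5G66900 and AT5G66910 had 0.87 and 0.13. Among the 5 chaperone genes that fold the receptors, HSP90.1 stood at 32.2, 8.76, 13.2, 8.57 and 5.54 FPKM and was lower in every treated column, with −1.92 after dehydration 1 h. HSP90.2 had −1.17 there, SGT1A −0.51 and SGT1B −0.08. After ABA 3 h SGT1A had −1.63 and SGT1B −0.18. Of 4 listed regulators of the receptors, BON1, whose loss activates SNC1, was at 1.21 after dehydration 1 h, and CPR1, the F-box protein that has SNC1 degraded, at 0.03. Of the 10 measured genes of salicylate and pipecolate signalling, 2 were at least 2-fold higher and 1 lower after dehydration 1 h, where 7.49% and 5.85% of all measured genes were. EDS5 stood at 4.74, 8.68, 8.03, 19.0 and 16.3 FPKM, a ratio of 2.01, and PR5 had 1.199, while ICS1, a synthesis enzyme, had 0.19 and PR1 had −1.12. After ABA for 3 h, 3 of the 10 were at least 2-fold higher, PBS3 at 2.44, FMO1 at 1.61 and SARD1 at 1.05, against 9.02% of all measured genes. All of them had their highest column there, and PBS3 stood at 2.23, 5.53, 12.1, 2.24 and 1.37 FPKM.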

How the data were processed

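Stranded mRNA libraries were sequenced as single 100-cycle reads, with the replicates of a condition pooled, per the labels' protocols. The genome build was TAIR10, and the tools named were DESeq2, Cuffdiff, Cufflinks 2.1.1 and TopHat2 2.0.8, per the submitters' processing notes, which give no role for any of them. The counting program was not given in the sources used here. For each gene the authors deposited unnormalized read counts and FPKM, each with 1 combined column per condition per the file headers. The planned edgeR test needs a value per replicate, so ratios were described by size instead. Counts were scaled with TMM factors (edgeR 4.0.16, R 4.3.3), counts under 3 were set to 3, and a limit of 2-fold was used among genes with a mean of at least 1 CPM. A row with 0 reads beside an FPKM of at least 1 was left out (1 row). Intervals are exact Clopper-Pearson (SciPy 1.17.1) at 95% and cover counting error only, without molecular identifiers. Depth was 163762670 to 204315702 reads per column. The ratios were checked on simulated counts.

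The members and gene lists were chosen with earlier results of these data known. Named genes are the 6 highest and 6 lowest members in each comparison with the control, 3 and 3 for dehydration against ABA, the 5 highest and 3 lowest by mean FPKM, members with a published role, extremes of neighbourhoods, divergent pairs, and genes of the lists. Others were named after their values were seen: AT3G04220, AT5G22690, AT4G36150, AT1G56520, and those named as highest outside dehydration 1 h. The planned names TAO1, AT4G19500 and CHS3 fall outside the family by annotation wording. TAO1 had log2 ratios of 0.21 and −0.43 after dehydration 1 h and 3 h, and AT4G19500 had −0.20 and −0.58. Gene names are those that the tables or RefSeq pair with a locus; RefSeq TAIR10.1 matched 85 of 85 members and 22432 rows, and the files carry no coordinates. The planned form of the P-loop was widened to the Walker A form after the data were seen. Protein lengths and the MHD motif were not computed. Alternatives were scaling by total counts, upper quartiles or RLE, no filter, a mean of at least 5 CPM, ratios of FPKM with 1 or 0.1 added, and leaving out members that overlap a gene on their strand or, chosen after seeing the data, that have at least 10% repeated stretches.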

Additional observations from a re-analysis of the deposited data

Results flagged for a closer look

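AT5G46500 was singled out because it stood at least 2-fold apart from the control in opposite directions at 3 h, lower after ABA and higher after dehydration. Its reads were 189 in the control, 252 and 99 with ABA (1 h and 3 h), and 956 and 810 with dehydration (1 h and 3 h). The log2 ratios to the control at 3 h were −1.07 (−1.44 to −0.71) after ABA and 2.08 (1.85 to 2.32) after dehydration, a difference of 3.15. With 1 combined column per condition the difference was not tested. The gene is annotated only by its best protein match, 5.50% of its exonic 100-base stretches occur elsewhere in the genome, and the part of reads from its neighbours was not tested.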

How the results depend on the processing

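Leaving out replicates was not run, since the tables hold no value per replicate. No paired analysis was possible because each condition has 1 combined column. Of 136 counts of members compared under the alternatives, 103 stayed within 1.5 times the reported count and 33 did not. Among medians at least 0.1 from 0 and named-gene ratios of at least 2-fold, 0 changed sign. Among smaller ones, 3 of 120 named-gene ratios changed sign under upper-quartile scaling and 2 under total-count scaling. The median for ABA 3 h went from −0.02 to 0.001 at 5 CPM or more. RLE scaling and leaving out members with repeated stretches moved 0 counts, and so did leaving out overlapping members, which was run for the 4 comparisons with the control. For ABA 1 h, members at least 2-fold higher (2 reported) were 5 with no filter, 1 at 5 CPM or more, and 0 on both FPKM scales, and lower members (2) were 1 on log2(FPKM + 1). For ABA 3 h, higher members (5) were 3 with upper-quartile or total-count scaling, 8 with no filter, 3 at 5 CPM, 1 on log2(FPKM + 1) and 3 on log2(FPKM + 0.1), and lower members (9) were 5 at 5 CPM and 3 on log2(FPKM + 1). For dehydration 1 h, lower members (1) were 2 with no filter. For dehydration 3 h, higher members (13) were 8 on log2(FPKM + 1), and lower members (2) were 4 with no filter and 1 at 5 CPM and on log2(FPKM + 1). For dehydration against ABA at 3 h, higher members (17) were 9 on log2(FPKM + 1), and lower members (1) were 2 with no filter and 0 with upper-quartile or total-count scaling, at 5 CPM and on both FPKM scales. For ABA 3 h against 1 h, higher members (0) were 1 with no filter, and lower members (2) were 4 with upper-quartile or total-count scaling and 0 at 5 CPM and on log2(FPKM + 1). For dehydration 3 h against 1 h, lower members (0) were 2 with upper-quartile scaling, 3 with total counts and 1 with no filter. Adding 1 to FPKM shrinks the ratios of low genes by construction, and the cause of the other shifts was not tested. Of 120 named-gene ratios, the side of the 2-fold limit changed for 0 under RLE, 5 under upper-quartile, 6 under total-count scaling, 5 with 0.1 and 14 with 1 added to FPKM. The 18 members not measured were left out by the filter on mean CPM, and their low counts limit the precision of the ratios without it.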
